A study of Mus musculus with 22 samples.

Results

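Store-operated calcium entry was examined through 5 genes chosen by name, Stim1, Stim2, Orai1, Orai2 and Orai3, out of 23453 gene symbols in the deposited count table. All 5 were listed, and all 5 had a read in at least 5 cells, as 12719 genes did. The samples were 22 single astrocytes from primary cultures of the cortex of newborn C57BL/6 pups, with no allele altered. Every cell had been loaded with the calcium dye Fluo-4, exposed to EtOH under the microscope and aspirated with a micropipette, and its RNA was amplified and sequenced as 1 library. The cells were grouped by their calcium response to EtOH into 6 S-type cells with a slow rise and slow decay, 6 T-type cells with a transient rise, 5 M-type cells with a mixed waveform and 5 NR cells without a response. All groups shared the culture treatment, including shaking and cytosine arabinoside against other cell types and removal of serum before imaging, so every comparison below is between EtOH-exposed cells. The labels give neither the animal nor the culture of a cell. Each response type therefore counted as 1 sample, and no test, p-value or standard error between types is given. Means are followed by the SD over cells, which describes the spread between cells and not between animals.

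Store-operated calcium entry refills the endoplasmic reticulum after its calcium has been released. The STIM proteins sit in the reticulum membrane and sense the calcium inside. When it falls, they cluster next to the plasma membrane and open the ORAI channels there. Stim2 is known as the sensor that answers small falls and holds the resting level, and Stim1 as the one that answers a strong depletion. Orai1 forms the pore of the classical calcium release-activated channel, and its paralogs Orai2 and Orai3 can form channels of their own or join those of Orai1. In astrocytes, the pathway follows release through inositol trisphosphate receptors and contributes to the later phase of a calcium signal.

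On the build GRCm38, Stim1 lies at chr7:102267806-102437319 and Orai3 at chr7:127769815-127775150, both on the plus strand. Stim2 lies at chr5:53998499-54121057 and Orai1 at chr5:123015074-123030456 on the plus strand, and Orai2 at chr5:136147459-136170713 on the minus strand. The deposited values are exonic reads over whole genes, so exons, introns and isoforms cannot be separated. Only 7 exonic bases of Orai1 were shared with another annotated gene, the antisense Gm2479. Reads of 75 bases could in principle be split between paralogs, so the transcripts were compared. No stretch of 75 bases was shared within any of 4 pairs of paralogs. The longest shared coding run was 29 bases in Orai2 and Orai3, and it is shown because it is the closest these genes come to sharing a read.

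Orai2 and Orai3 shared run: ggcttcgccatggtggccatggtggaggt

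That run covers coding bases 256 to 284 of Orai2 and 217 to 245 of Orai3. In aligned coding sequence, Stim1 and Stim2 were identical at 63.7% of bases, and the 3 ORAI pairs at 73.0% to 75.1%. The counts below can thus be read as those of separate genes.

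The promoters of the 3 genes that were at least 2-fold lower in T-type cells than in each other type are shown next, as the 250 bases before the RefSeq gene start (GRCm38.p6), written in the direction of transcription. Capitals mark the GC box GGGCGG and the E-box CACGTG on either strand.

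Stim2, chr5:53998273-53998522, plus strand: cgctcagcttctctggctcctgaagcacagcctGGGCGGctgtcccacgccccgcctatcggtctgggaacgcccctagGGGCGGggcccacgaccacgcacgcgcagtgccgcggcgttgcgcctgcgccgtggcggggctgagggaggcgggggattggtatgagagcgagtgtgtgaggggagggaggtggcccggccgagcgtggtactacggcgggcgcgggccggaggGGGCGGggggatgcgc

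Orai2, chr5:136170657-136170906, minus strand: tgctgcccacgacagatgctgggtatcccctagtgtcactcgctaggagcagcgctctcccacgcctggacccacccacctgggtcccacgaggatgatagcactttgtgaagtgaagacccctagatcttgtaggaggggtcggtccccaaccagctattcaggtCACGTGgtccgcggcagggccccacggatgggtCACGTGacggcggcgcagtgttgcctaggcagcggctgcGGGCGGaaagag

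Orai3, chr7:127769565-127769814, plus strand: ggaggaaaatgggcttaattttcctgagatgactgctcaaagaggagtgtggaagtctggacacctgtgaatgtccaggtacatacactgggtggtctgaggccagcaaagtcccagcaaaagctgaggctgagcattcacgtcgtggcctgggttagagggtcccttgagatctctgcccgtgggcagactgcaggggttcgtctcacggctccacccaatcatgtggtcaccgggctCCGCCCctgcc

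The GC box matched 3 times in Stim2, once each in Orai2 and Orai3, 8 times in Stim1 and 3 times in Orai1. Among 27025 promoters of the same length, 32.9% held at least 1 match. The E-box matched only in Orai2, at 2 places, whereas 6.05% of promoters held at least 1 and 0.448% at least 2. CCAAT, searched on both strands, was present in Stim2, Orai1 and Orai3 and in 34.5% of all promoters, and TATAAA was in none of the 5 and in 13.0% of all. No motif was thus common to the 3 printed promoters apart from the GC box, which all 5 genes held. GC content ran from 57.2% in Orai3 to 78.4% in Stim1, against a median of 52% over all promoters. These matches describe letters in a window and nothing about a bound factor.

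Library depth differed most within the T-type cells. Total counts ran from 2937786 to 22131076 with a median of 16965582, and the shallowest libraries were the T-type cells J163_18 with 2937786 and J164_19 with 6568630. T-type cells had a read for 6319 to 10614 genes, while the cells of the other types had 9272 to 13070. Size factors, which scale counts to a common depth, were 0.183 to 1.56 in T-type cells and 0.923 to 2.31 elsewhere, and the values for J162_16, J163_18 and J164_19 lay below 0.6. All 10 astrocyte markers had a read in every type, for which a single cell was enough. Their sums were 21429 to 208936 normalized counts per T-type cell and 14075 to 96107 per S-type cell. Sums were 13584 to 64556 per M-type cell and 13541 to 123677 per NR cell. Gfap, Aqp4, Slc1a2 and S100b had their lowest level in T-type cells, Slc1a3, Sox9 and Glul their highest. Aldh1l1, Gja1 and Aldoc lay between. Slc1a2 was at 298 in T-type and 10271 in NR cells, Sox9 at 23782 and 5697. Summed microglial markers reached 1007 normalized counts in T-type and 1450 in NR cells but at most 10.4 in S-type and 21.9 in M-type cells, with a read for 10, 10, 5 and 9 of the 11 markers, and with Tmem119 at 0 in T-type and P2ry12 at 0 in NR cells. Summed markers of mural cells and fibroblasts were 4255 to 103133 per T-type cell, 1599 to 73186 per S-type cell, 324 to 29875 per M-type cell and 170 to 16207 per NR cell, and Rgs5 had no read in any type. Oligodendrocyte lineage markers summed to 2243 to 53351 per T-type cell and 498 to 21336 per cell elsewhere, with Sox10 at 0 in all 4 types. Neuronal markers summed to 0 to 3836 in T-type and 3.11 to 31628 in the other cells, with Dcx at 0 in all but NR cells. Endothelial markers summed to 0 to 2499 in T-type and 0 to 578 elsewhere, and Cldn5 had no read in any cell. The highest T-type sum was in J164_19 for microglia, J163_18 for the oligodendrocyte lineage and J165_23 for endothelium. These are also the T-type cells without an ORAI read below. For mural cells and fibroblasts it was in J161_9, and for neurons in J166_25. The part of these markers in the results below was not tested.

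The 5 genes were read together in most astrocytes, but in few of the T-type. All 5 had a read in 16 of 22 cells, namely 5 M-type, 5 S-type, 4 NR and 2 T-type cells. Stim1 and Stim2 each had a read in 21 cells, Orai1 in 19, Orai2 in 18 and Orai3 in 16. Outside the T-type, every cell had a read of Stim1, Stim2 and Orai1, and the only gaps were Orai3 in S-type cell J156_16 and Orai2 and Orai3 in NR cell J187_6. In T-type cells, Orai1 was read in 3 of 6 cells (50%, 95% exact interval 11.8 to 88.2), Orai2 in 3 and Orai3 in 2. The same 3 T-type cells, J163_18, J164_19 and J165_23, had no read of any ORAI gene. These cells had a read for 7442, 9993 and 8647 genes. How often other genes of like level lacked a read in T-type cells was not counted. The gaps are thus not shown to be particular to the 5 genes. The interval for Orai1 is binomial over the 6 cells as if they were independent, and gives no spread between animals or cultures. Intervals below are on reads and cover counting error only, since a read is an amplified copy without a molecular identifier.

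**Figure D1:**
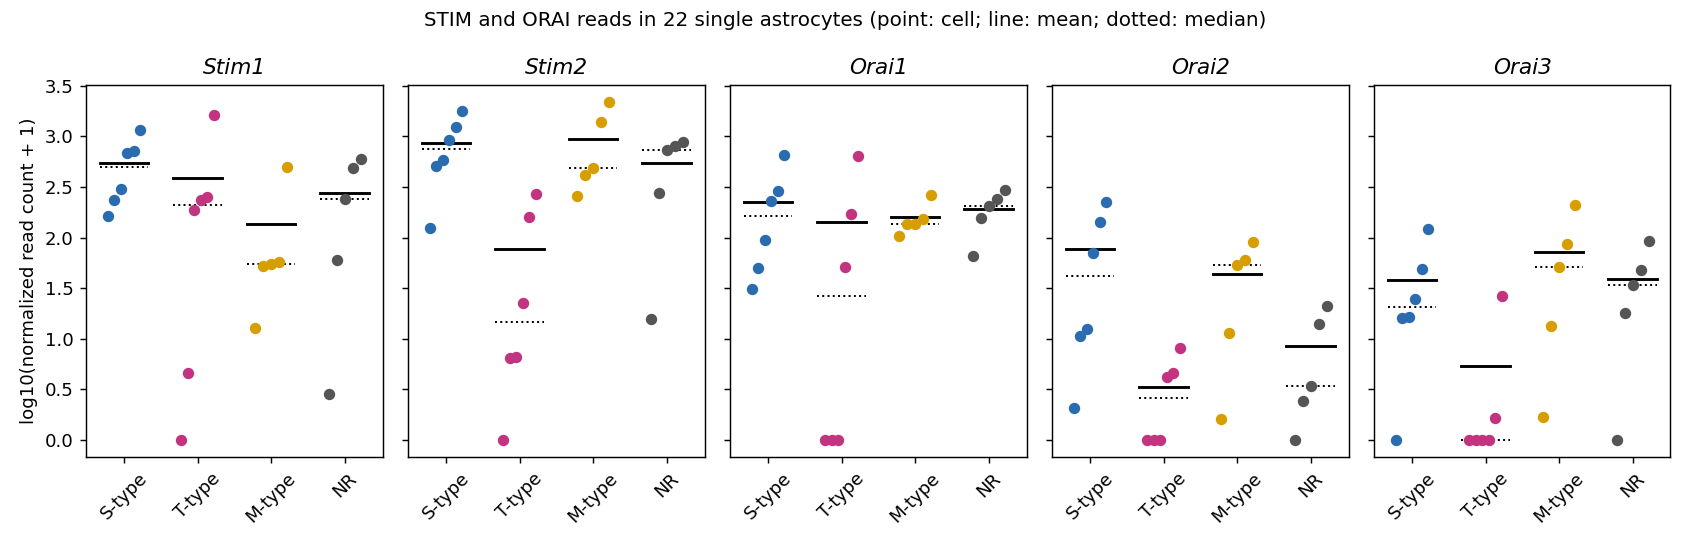
Normalized read count of each gene in each of the 22 cells, as log10 of the count plus 1, by response type (points are cells, solid lines type means, dotted lines medians). T-type cells reach 0 for every gene, and 3 of 6 lie at 0 for Orai1, while no cell of the other types does.

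The Stim1 level, that of the sensor of strong depletion, rested largely on 1 cell each in the T-type and the M-type. In S-type cells it had 264 reads in the lowest cell, a median of 598 and 1068 in the highest, a level of 543.7 ± 381 normalized counts (mean ± SD, n = 6 cells). T-type cells ran from 0 to 2509 reads with a median of 152.5, a level of 383 ± 619 (n = 6). One T-type cell, J165_23, held 70.8% of that level and was the highest of all 22 cells. The M-type cells had 89, 713, 115, 98 and 27 reads, a level of 134 ± 205 (n = 5), with J173_25 standing alone at the top. The NR cells had 97, 848, 820, 404 and 2 reads, a level of 275 ± 257 (n = 5). From the highest level down the types were S-type, T-type, NR and M-type, and the cells of every pair of types overlapped.

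Stim1 was 4.05-fold higher in S-type than in M-type cells, a log2 ratio of 2.02 with a 95% counting interval of 1.92 to 2.12. Leaving out each cell in turn kept this ratio between 1.65 and 3.66, the higher value without M-type cell J173_25. Against T-type cells the comparison rested on a single cell. T-type was lower than S-type by a log2 ratio of -0.51 (-0.58 to -0.44), and without J165_23 this became -2.02. It was higher than M-type by 1.51 (1.41 to 1.61), but 1.00-fold without J165_23 and 3.15 in log2 without J173_25. Against NR the ratio of 0.48 (0.40 to 0.56) turned to -1.03 without J165_23 and to -0.21 with medians of cells. S-type was 1.98-fold higher than NR (0.99, 0.91 to 1.06), and M-type was 2.05-fold lower than NR (-1.03, -1.14 to -0.93), a ratio that shrank to -0.54 without NR cell J185_4 and grew to -2.67 without J173_25. The direction of T-type against S-type held with every single cell left out, but it was 0.34 without the 3 T-type cells of low size factor, and the direction against NR did not hold.

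Stim2, the sensor of small calcium falls, was low in all T-type cells relative to most other cells. S-type cells had 138 to 2394 reads with a median of 940, a level of 857 ± 589 normalized counts. The M-type cells had 3498, 365, 2982, 797 and 1130 reads (949 ± 824) and the NR cells 1436, 1426, 1024, 456 and 16 (541 ± 377). T-type cells J161_9, J162_16, J163_18, J164_19, J165_23 and J166_25 had 4, 6, 1, 146, 0 and 248 reads (76.3 ± 111). The T-type range ended at 266 normalized counts, and outside the T-type only NR cell J187_6 (14.8), S-type cell J150_3 (123) and M-type cell J173_25 (256) lay within it. T-type cell J165_23 had no Stim2 read among 19279519, which allows up to 1.94 normalized counts, below the lowest cell of every other type.

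The Stim2 level in T-type cells was 11.2-fold lower than in S-type (log2 ratio -3.49, -3.64 to -3.34), 12.4-fold lower than in M-type (-3.64, -3.78 to -3.49) and 7.09-fold lower than in NR cells (-2.82, -2.98 to -2.68). With each cell left out in turn, these ran from -4.48 to -3.14, from -4.63 to -3.07 and from -3.82 to -2.56, with the lower ends all without T-type cell J164_19. Without the 3 T-type cells of low size factor the ratios were -3.97, -4.11 and -3.30, and with medians of cells -5.66, -5.06 and -5.65. S-type and M-type levels lay within 1.11-fold of each other, a ratio of -0.15 whose sign turned to 0.42 without M-type cell J172_23. Both means were above NR, by 0.66 (0.61 to 0.72) and 0.81 (0.76 to 0.86), but with medians of cells the M-type lay below NR by -0.59. The order was M-type, S-type, NR and T-type, and the ranges of neighbouring types overlapped.

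Orai1, the pore subunit, was read in every cell outside the T-type and varied least among the M-type and NR cells. The M-type cells had 218, 191, 220, 294 and 605 reads (157 ± 60.8 normalized counts) and the NR cells 107, 271, 332, 495 and 218 (191 ± 87.6). S-type cells ran from 34 to 608 with a median of 208 (224 ± 236), the highest being J151_5. The T-type cells J161_9, J162_16 and J166_25 had 50.7, 635 and 170 normalized counts, and the other T-type cells none (143 ± 250). In J163_18, J164_19 and J165_23, a count of 0 allows up to 16.4, 5.47 and 1.94 normalized counts, whereas the lowest cell held 30.2 in S-type, 103 in M-type and 65.0 in NR. The 3 T-type cells without a read thus lay below every cell of the other types even at the limit their depth allows. T-type cell J162_16 held 74.2% of the T-type level. Its place depended on the scaling, and as CPM it had 13.9, against 42.7 in S-type cell J151_5, the highest.

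The ratios of Orai1 levels depended on the scaling and on single cells, and in each comparison of T-type cells 5 of 7 alternatives, leaving out single cells aside, put T-type at least 2-fold lower. T-type was 1.57-fold lower than S-type (-0.65, -0.80 to -0.50), a ratio of -2.35 without J162_16 and 0.06 without S-type cell J151_5. Against M-type it was -0.14 (-0.30 to 0.01), which became -1.84 without J162_16 and 0.12 without J165_23, and against NR -0.42 (-0.58 to -0.27), which became -2.12 without J162_16. With CPM of pooled reads the ratios to S-type, M-type and NR were -1.39, -1.22 and -1.32, with mean CPM -1.79, -1.49 and -1.65, and with medians of cells -2.62, -2.38 and -2.95. With TMM factors they stayed under 2-fold, at -0.89, -0.63 and -0.85. With all cells thinned to the smallest library they were -1.82, -1.63 and -1.64, and without the 3 T-type cells of low size factor -1.61, -1.10 and -1.38. Both kinds of CPM and the thinning all scale by total counts. The median of all genes in the same comparisons was also negative, at -0.55, -0.40 and -0.52 with CPM of pooled reads. It was -0.44, -0.31 and -0.45 with mean CPM, -0.42, -0.26 and -0.38 with thinned cells, and -0.73, -0.47 and -0.49 with medians. Among S-type, M-type and NR cells the 3 log2 ratios lay between -0.28 and 0.51, and those of S-type turned sign without J151_5, to -0.20 against M-type and -0.48 against NR. The levels were ordered S-type, NR, M-type and T-type, with overlapping cells throughout.

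Orai2 had the largest of the 30 ratios between types over all cells. The S-type cells had 1 to 253 reads with a median of 52.5 (75.7 ± 88.9 normalized counts), and the M-type cells 1, 75, 127, 20 and 208 (42.6 ± 36.8). The NR cells had 33, 23, 2, 4 and 0 reads (7.38 ± 8.76). The T-type cells had 5, 1, 0, 0, 0 and 5 (2.31 ± 2.86), 11 reads in all 6 cells together. Orai2 was thus low in both T-type and NR cells, but S-type cell J151_5 and M-type cell J172_23, each with 1 read, were as low, so no pair of types was separate.

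T-type Orai2 was 32.7-fold lower than S-type (-5.03, -6.04 to -4.18) and 18.4-fold lower than M-type (-4.20, -5.22 to -3.35). Over cells left out in turn the ratios stayed between -5.79 and -4.33 and between -4.96 and -3.73. The difference from NR was smaller, 3.19-fold (-1.68, -2.75 to -0.74), and was under 2-fold without NR cell J182_2 (-0.87) and with medians of cells (-0.38). S-type exceeded NR 10.3-fold (3.36, 2.98 to 3.76) and M-type exceeded NR 5.77-fold (2.53, 2.14 to 2.94). These ranged from 2.65 without S-type cell J154_8 to 4.16 without J182_2, and from 2.06 without M-type cell J176_25 to 3.34 without J182_2. The S-type and M-type levels differed by 1.78-fold (0.83, 0.65 to 1.01), down to 0.13 without J154_8 and up to 1.30 without J176_25, and to -0.36 with medians of cells.

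Orai3 had the fewest cells with a read. The M-type cells had 12.5, 0.700, 50.6, 84.6 and 209 normalized counts (71.4 ± 83.5) and the NR cells 17.0, 91.9, 46.7, 32.9 and 0 (37.7 ± 35.0). S-type cells had 0 to 122 with a median of 19.5 (37.3 ± 44.2). T-type cells had 0, 25.4, 0, 0, 0 and 0.640 from 0, 7, 0, 0, 0 and 1 reads (4.34 ± 10.3), and J162_16 held 97.5% of that level. The T-type cells were at or near 0 except for J162_16, but an S-type and an NR cell also lacked a read.

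T-type Orai3 was 8.60-fold lower than S-type (-3.10, -4.33 to -2.11), 16.5-fold lower than M-type (-4.04, -5.26 to -3.06) and 8.69-fold lower than NR (-3.12, -4.34 to -2.12). Without J162_16 only 1 T-type read was left, and the ratios were -8.19 (-13.5 to -5.70), -9.12 (-14.4 to -6.64) and -8.20 (-13.5 to -5.71). S-type and NR levels were within 1.01-fold (-0.01, -0.25 to 0.22), and this ratio ran from -0.88 without S-type cell J155_9 to 0.63 without NR cell J183_1. The M-type level was the highest, 1.89-fold above NR (0.92, 0.73 to 1.12) and 1.91-fold above S-type, and M-type cell J176_25 held 58.4% of it. Without that cell, M-type differed from NR by -0.02 and S-type from M-type by 0.01 in log2.

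**Figure D2:**
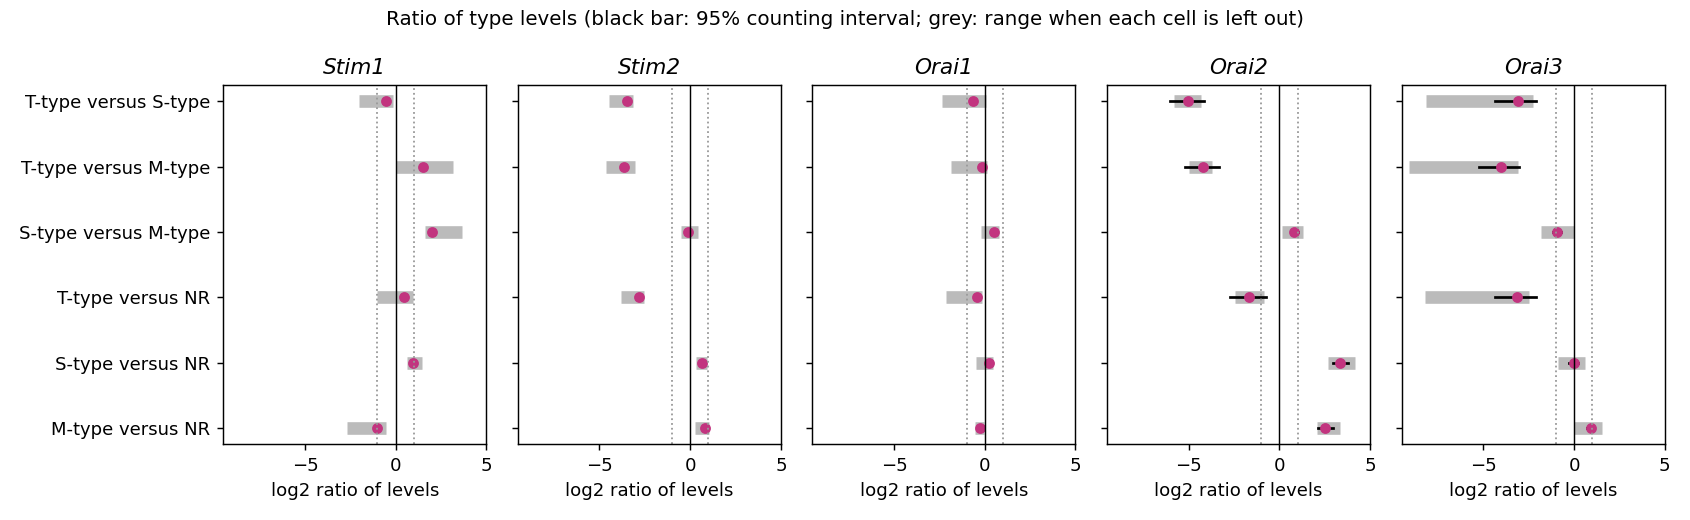
Log2 ratio of type levels for each gene and each of the 6 comparisons (points), with the 95% counting interval (black bars) and the range when each cell is left out (grey), and dotted lines at 2-fold. Stim2, Orai2 and Orai3 lie left of 0 in all 3 comparisons of T-type cells, and the grey range of Stim1 in T-type versus NR runs from -1.03 to 0.97.

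The counts of members past 2-fold were read against all 12719 genes. Relative to S-type, 3 of 5 genes were at least 2-fold lower in T-type cells (Stim2, Orai2 and Orai3) where 32.2% of all genes were, and 0 of 5 were higher where 26% were. Relative to M-type, the same 3 were lower and Stim1 was higher, with 27.3% and 30.4% of all genes. Relative to NR, again these 3 were lower and none was higher, with 32.4% and 28.6%. Orai1 was also at least 2-fold lower in all 3 comparisons with CPM of pooled reads, mean CPM, thinned cells and without the 3 T-type cells of low size factor. The share of all genes past 2-fold was not counted under these settings. The median of all genes in T-type versus S-type was lower there, at -0.55 with CPM of pooled reads, -0.44 with mean CPM and -0.42 with thinned cells, beside -0.07 with size factors. The 3 comparisons share the T-type cells, so they are not separate evidence. A 2-fold difference of T-type cells was thus common in the whole table, and the 3 of 5 is to be read against 1 to 2 of 5 at that background.

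The types other than T-type differed less. Stim1 alone was 2-fold higher in S-type than in M-type (28.2% of all genes) and none was lower (16.9%). Orai2 alone was 2-fold higher in S-type than in NR (25.1%) and none was lower (22.4%). In M-type against NR, Orai2 was higher (19.8%) and Stim1 lower (28.1%). In none of the 30 combinations of gene and comparison did the cells of both types fail to overlap. The share of all genes that did was 0.771%, 0.739% and 0.991% for T-type against S-type, M-type and NR, 0.464% and 0.409% for S-type against M-type and NR, and 0.598% for M-type against NR.

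**Figure D3:**
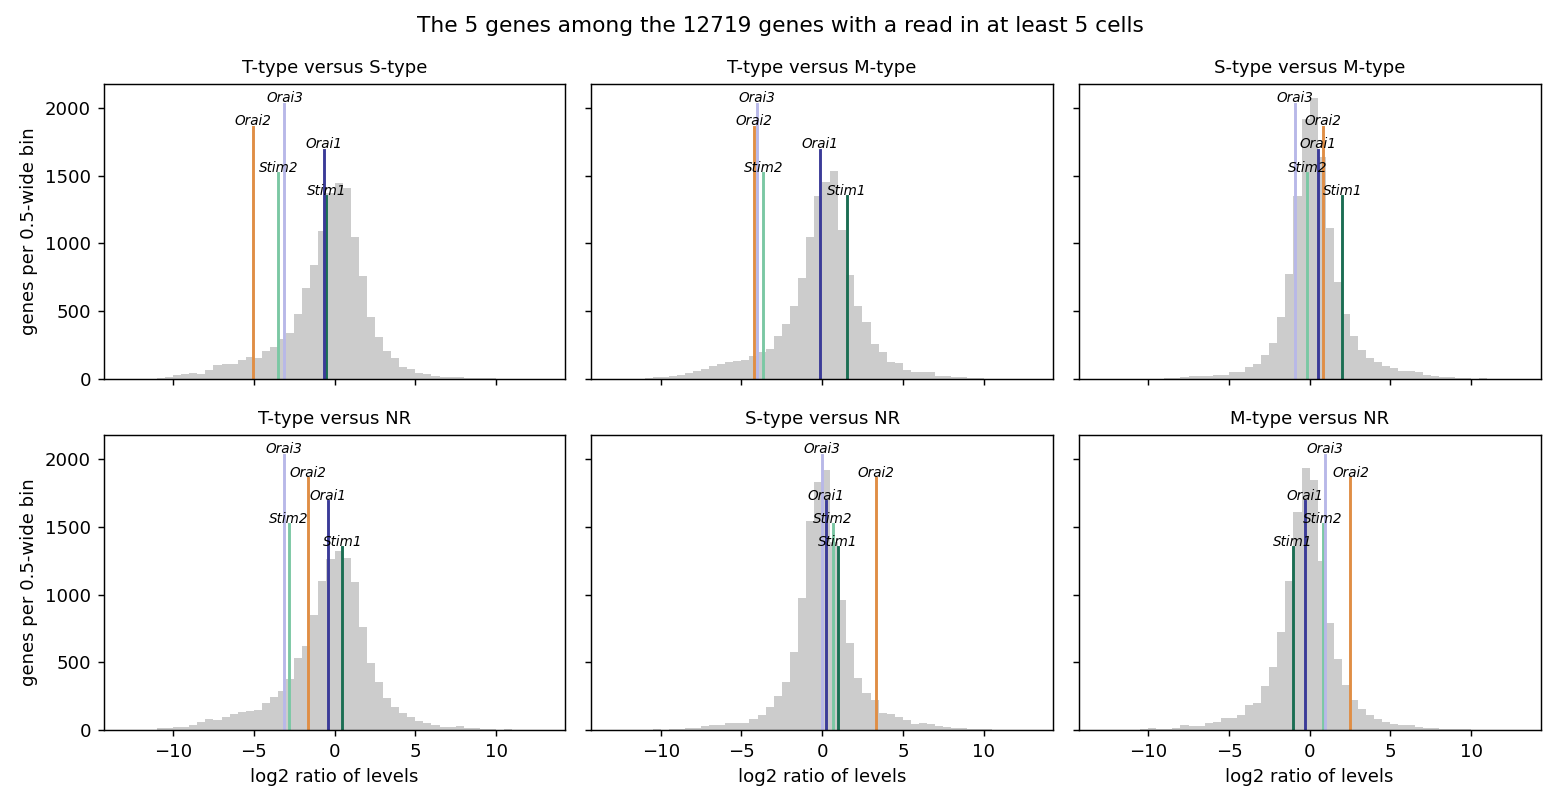
Distribution of the log2 ratio of all 12719 genes in each comparison (grey bars, genes per bin of 0.5) with the 5 genes as coloured lines, whose heights carry no value. In T-type versus S-type, Orai2 lies at percentile 6.74, Stim2 at 11.6 and Orai3 at 13.3 of all genes.

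The median log2 ratio of the 5 genes was -3.10 in T-type versus S-type, -3.64 versus M-type and -1.68 versus NR, beside -0.07, 0.17 and -0.05 over all genes. It was 0.51 in S-type versus M-type, 0.66 in S-type versus NR and 0.81 in M-type versus NR, beside 0.21, 0.03 and -0.20. On log2 of the normalized count plus 1, differences between the 4 type means held 54.8% of the variance of Stim2 over the 22 cells, 40.1% of that of Orai2, 35.7% of Orai3, 33.3% of Orai1 and 17.2% of Stim1. The median gene had 15.1%. Stim2 thus stood at percentile 99.0 and Stim1 at 56.6 of all genes by this measure, which is a description of these cells. The study had already reported Stim2 and Orai2 as enriched in S-type relative to T-type cells, from these same data. The members were chosen with earlier results known, so these medians and percentiles are not an independent comparison.

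Within the STIM family and per kilobase of the longest protein-coding transcript, Stim2 prevailed in most S-type, M-type and NR cells. Neither sensor prevailed across the T-type cells at that length. Per kilobase of transcript, Stim2 gave 58.2% of the STIM level in S-type, 86.2% in M-type, 63.5% in NR and 15.0% in T-type cells. Its share in single cells was 13.1% to 77.3% in S-type, with a median of 66.1%. The M-type cells had 97.2%, 31.2%, 95.8%, 87.8% and 97.4%, and the NR cells 92.9%, 59.8%, 52.5%, 49.9% and 87.6%. Stim2 exceeded Stim1 in 4 of 6 S-type, 4 of 5 M-type and 4 of 5 NR cells. T-type cells were divided, with 1.96%, 84.1%, 100%, 50.2%, 0% and 43.1%, and Stim2 exceeded Stim1 in 3 of 6. Of these, the 84.1% and the 100% rested on 7 and 1 STIM reads. The shares, and which sensor leads in a cell, depend on the length used. With the length of all annotated exons, Stim2 gave 76.1% in S-type, 93.5% in M-type, 79.9% in NR and 28.7% in T-type cells. Cells where Stim2 exceeded Stim1 were not counted with that length. The mean of the T-type shares was 46.6% ± 41.1, far from the 15.0% of the summed level, to which J165_23 with 2509 Stim1 reads contributed most, and without that cell the share of the level was 37.6%.

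Within the ORAI family, Orai1 came first per kilobase of transcript in all 19 cells that had an ORAI read. In raw reads, S-type cell J156_16 had 189 of Orai2 and 125 of Orai1. Orai1 gave 76.7% of the ORAI level per kilobase in S-type, 65.6% in M-type, 84.0% in NR and 96.7% in T-type cells. Its share in single cells was 58.5% to 96.9% in S-type. In M-type cells it was 92.4%, 84.1%, 58.8%, 65.9% and 53.7%, and in NR cells 72.8%, 64.0%, 85.2%, 90.8% and 100%. The 3 T-type cells with a read had 93.9%, 96.4% and 98.8%, so the T-type cells with ORAI reads had almost only Orai1, as had S-type cell J151_5 and NR cell J187_6. In the S-type level Orai2 had 12.2% and Orai3 11.2%, but Orai2 exceeded Orai3 in 2 of 6 cells, and with the length of all annotated exons the order turned to 9.77% and 13.7%. Orai3 was second in M-type with 26.1% against 8.34% for Orai2, and in NR with 14.5% against 1.52%. A share within a cell does not depend on how the cells were scaled to each other, but it depends on the length used. In raw reads without length, the Orai1 share was 63.7% in S-type and 55.9% in M-type, and that of Orai2 24.4% and 15.8%.

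**Figure D4:**
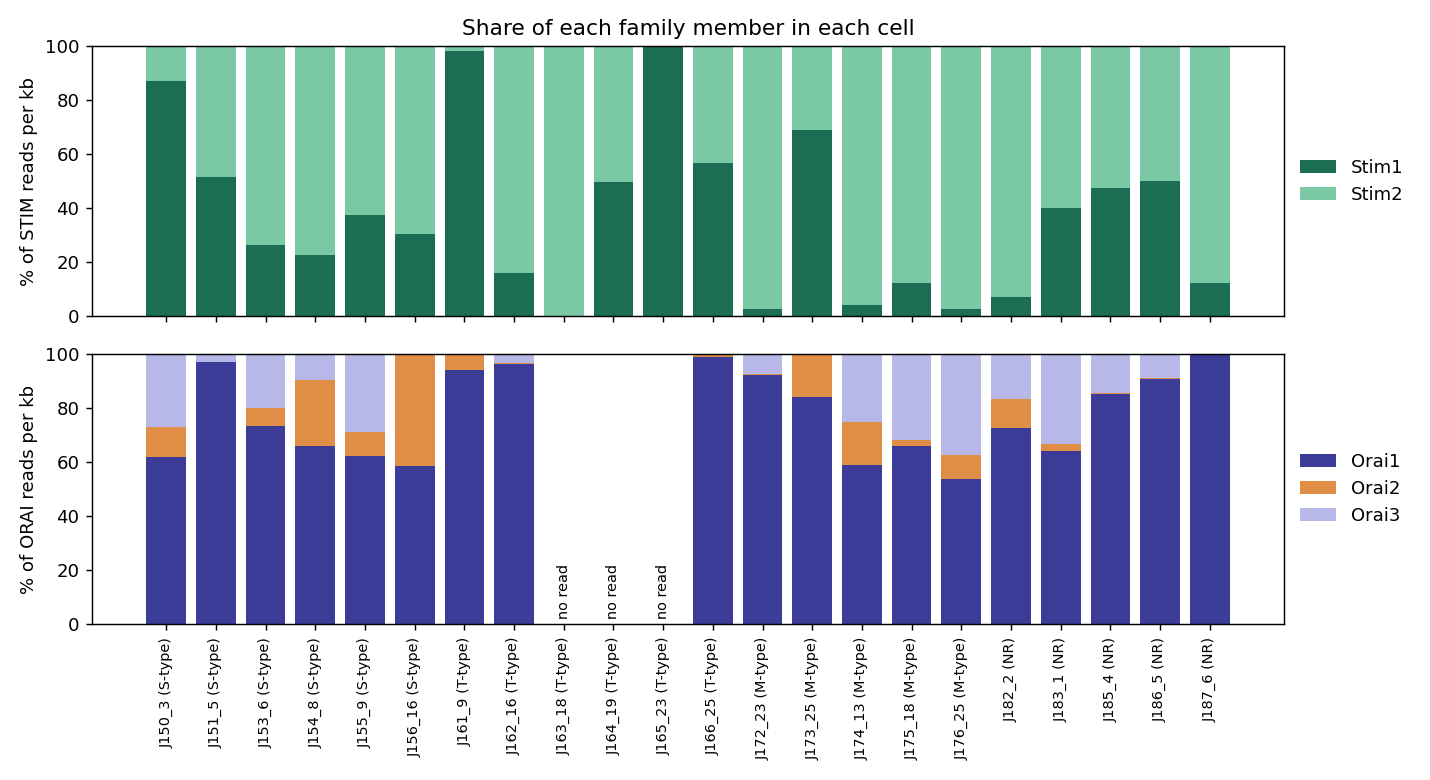
Share of each gene in the STIM (top) and ORAI (bottom) reads per kilobase of each cell, in percent, with cells on the horizontal axis by response type. Orai1 is the largest ORAI share in all 19 cells with an ORAI read, and 3 T-type cells are marked as having none.

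Per kilobase of transcript, the order of the genes over all 22 cells was Stim2, Orai1, Stim1, Orai3 and Orai2. In S-type cells the levels were 173.6 normalized counts per kilobase for Stim2, 125 for Stim1, 119 for Orai1, 18.97 for Orai2 and 17.4 for Orai3. Orai1 exceeded Orai2 in 6 of 6 S-type cells, but Stim1 exceeded Orai1 in 3 of 6. In M-type cells Stim2 led with 192, followed by Orai1 with 84.0, Orai3 with 33.4, Stim1 with 30.8 and Orai2 with 10.7. Orai1 exceeded Orai3 in 5 of 5 M-type cells, and Stim2 exceeded Orai1 in 3 of 5. In NR cells the levels were 110 for Stim2, 102 for Orai1, 63.0 for Stim1, 17.6 for Orai3 and 1.85 for Orai2, with Stim2 above Orai1 in 3 of 5 cells. In T-type cells Stim1 came first with 87.8, then Orai1 with 76.0, Stim2 with 15.5, Orai3 with 2.03 and Orai2 with 0.579. Stim1 exceeded Orai1 in 3 of 6 T-type cells and Orai3 exceeded Orai2 in 1 of 6, and without J165_23 Orai1 came first with 91.2 and Stim1 was at 30.8. Ranges over cells overlapped for all neighbours in these orders. The summed STIM level per kilobase was 298 in S-type, 223 in M-type, 172.6 in NR and 103 in T-type cells, and the summed ORAI level 155.9, 128, 121 and 78.6. The T-type sums rested on single cells, with a STIM sum of 49.3 without J165_23 and an ORAI sum of 24.1 without J162_16.

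The 3 members lowest in T-type cells also moved with the number of genes detected. Over the 22 cells, which share depth and library differences, Spearman's rho with the number of genes with a read was 0.73 for Orai2, 0.63 for Orai3 and 0.61 for Stim2, against 0.20 for Orai1 and 0.19 for Stim1. With total counts it was at most 0.23 for any of the 5. Pearson's r on the log2 levels did not set the 3 members apart. With the number of genes it was 0.69 for Stim2, 0.60 for Orai2, 0.48 for Stim1, 0.44 for Orai3 and 0.36 for Orai1. With log2 total counts Pearson's r was 0.57 for Orai1, 0.36 for Stim1, 0.34 for Orai3, 0.33 for Orai2 and 0.32 for Stim2. The part of detection in the low T-type levels was not tested. With all cells thinned to 2937786 reads, which equalizes total counts but not the number of genes detected, the log2 ratio of T-type to S-type was -3.42 for Stim2, -5.49 for Orai2 and -4.81 for Orai3, and Orai2 then had a read in 0 of 6 T-type and 5 of 6 S-type cells.

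**Figure D5:**
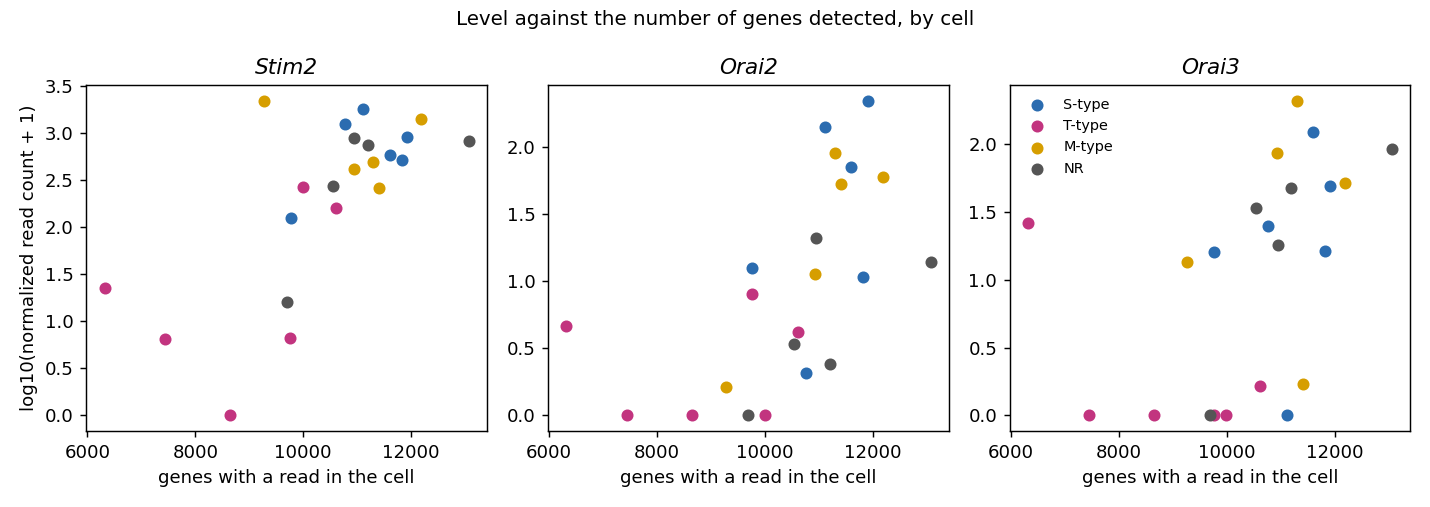
Level of Stim2, Orai2 and Orai3 in each cell (log10 of the normalized count plus 1) against the number of genes with a read in that cell, coloured by type. The T-type cells lie at 6319 to 10614 genes and mostly at the lower left, while cells of the other types with 9272 to 13070 genes spread over most of the vertical range.

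Among the members, Orai1 and Orai3 were most alike across cells (rho 0.60), then Orai2 and Orai3 (0.55), Stim2 and Orai2 (0.48) and Stim2 and Orai3 (0.47). With the type means removed, Pearson's r of these pairs was 0.38, 0.20, 0.17 and 0.25. Stim1 and Stim2 had a rho of 0.13, and Stim1 had -0.06 with Orai1. The sensors were therefore not read in parallel, and Stim1 was close to no other member. Among 10492 other genes, those with the pattern most like Stim1 were Prc1, a spindle midzone protein (0.82), and Cenpm, a centromere protein (0.82). Both were highest in S-type cells, Prc1 with 4272 normalized counts and Cenpm with 514. For Stim2 they were the exonuclease gene Dis3l (0.85) and the histone methyltransferase gene Setdb1 (0.83), and for Orai1 the polymerase subunit Pole3 (0.79) and the SNARE gene Snap47 (0.78). Those of Orai2 were Tmem87b (0.86) and the carbohydrate kinase gene Fggy (0.83), and those of Orai3 Rhobtb2 (0.81) and the thrombospondin gene Thbs2 (0.74). Dis3l, Tmem87b and Thbs2 had T-type levels of 0.448, 0.341 and 0 normalized counts. These are the largest of many correlations over the same 22 cells and are given as a description.

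Genes that work around the 5 members were counted from 3 lists. Of 21 genes for partners of STIM and ORAI, 18 passed the filter, and Efcab4b, Atp2c2 and Trpc6 did not. In T-type cells 3 were at least 2-fold higher and 5 lower than in S-type, where 26% and 32.2% of all genes were, 4 and 5 against M-type (30.4% and 27.3%), and 4 and 5 against NR (28.6% and 32.4%). Against NR, 7 were higher and 2 lower in S-type (25.1% and 22.4%) and in M-type cells (19.8% and 28.1%), and between S-type and M-type 3 were higher and 3 lower (28.2% and 16.9%). The median log2 ratio of this list lay between -0.25 and 0.48 in all 6 comparisons, so it did not share the low T-type median of the members.

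Of 9 genes for store release and refill, 7 passed. Relative to S-type, 1 was 2-fold higher and 4 lower in T-type cells, with 26% and 32.2% of all genes, relative to M-type 3 and 3 (30.4% and 27.3%), and relative to NR 2 and 3 (28.6% and 32.4%). The medians were -1.33, 0.91 and -0.17. S-type had 3 higher and 1 lower against M-type (28.2% and 16.9%) and 3 and 2 against NR (25.1% and 22.4%), and M-type had 1 and 4 against NR (19.8% and 28.1%). Of 9 calcineurin and NFAT genes, which carry the signal of calcium entry to the nucleus, 8 passed. In T-type cells 1 was higher and 5 lower than in S-type, 2 and 3 against M-type, and 1 and 3 against NR, beside the same shares of all genes, with medians of -2.94, -0.58 and -0.72. S-type had 1 higher and 2 lower against M-type and 2 and 2 against NR, and M-type had 2 and 0 against NR, again beside the shares just given. No gene of the 3 lists had cells without overlap in any comparison, so the following were chosen after their values were seen.

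The store receptor and pump were read where the ORAI genes were not. Itpr1, the inositol trisphosphate receptor, Atp2a2, the pump that refills the store, and Tmem66, which encodes the STIM inhibitor SARAF, had reads in all 22 cells. In T-type cells Itpr1 ran from 3.63 to 2776 normalized counts, and the highest was J163_18, which had 1 read of all 5 members together. That cell also had the highest T-type level of Tmem66, 27327. Itpr1 was lower in T-type than in S-type by -1.74 (-1.80 to -1.67) and by -3.25 without J163_18. Atp2a2 differed by 0.39 (0.37 to 0.41), which became -0.75 without J161_9, and Tmem66 by 0.86 (0.84 to 0.88), 0.42 without J163_18.

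Some partners and targets were low in T-type relative to S-type cells. Homer1, a scaffold, had 32 T-type reads in 2 of 6 cells and 2115 S-type reads in 5 of 6, a log2 ratio of -6.21 (-6.76 to -5.71), or -8.91 without T-type cell J166_25. Against M-type it was -7.77 (-6.41 without J173_25) and against NR -5.60, the latter -3.29 without J183_1, with reads in 2 of 5 NR cells. The calcineurin subunit Ppp3cc had 28 T-type reads against 719 (-4.59, -5.19 to -4.05), or -3.51 without S-type cell J151_5, and stood at -6.89 against M-type (-4.41 without J172_23) and -5.76 against NR (-4.50 without J185_4). The transcription factor gene Nfatc1 had 4 T-type reads against 401 (-5.49, -7.37 to -4.12), or -7.51 without J164_19 and -4.32 without S-type cell J156_16, and stood at -6.34 against M-type and -6.72 against NR (-4.67 without J185_4). Nfatc2 had no read in a T-type cell, 140 reads in 4 of 6 S-type cells with J154_8 the highest at 82.3 normalized counts, 1044 reads in 2 of 5 M-type cells and 8 in 1 of 5 NR cells. In contrast Tmem110, a promoter of STIM and ORAI contacts, was higher in T-type cells by 4.14 (4.02 to 4.26), but J161_9 held 7461 of its normalized counts and the ratio was 1.16 without that cell. The catalytic calcineurin gene Ppp3ca was 1.40 higher (1.37 to 1.43), and 0.30 without J161_9.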

How the data were processed

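Single-cell RNA was amplified as antisense RNA, and stranded paired libraries were sequenced. After trimming and STAR alignment to GRCm38, the authors deposited raw exonic read counts per gene, 1 column per cell, without normalization. The submitters' processing notes name HTSeq and the study's methods name VERSE as the counter. Versions and the use of strand are not given in the sources used here. The deposited table held 23453 genes.

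Size factors were medians of ratios over the 3670 genes read in every cell. The level of a type was the mean of count over size factor. For a type without a read, 3 reads over its cells served as the limit. Comparisons used genes read in at least 5 cells. Log2 ratios have exact binomial 95% intervals. Levels per kilobase used the longest protein-coding transcript (GENCODE vM21). Each type is 1 sample, so no between-type test was run. The members and lists were chosen with earlier results of these data known. All 5 members are named, with the 2 genes closest to each by Spearman's rho at a mean level of at least 10 and a read in at least 11 cells. Of the pathway lists, up to 2 genes without overlap between types were to be named, and none qualified. Alternatives were CPM of pooled reads, mean CPM, TMM, thinned cells, medians, a pseudocount of 1, and each cell left out. Added after the data had been seen were leaving out 3 T-type cells with low size factors and the length of all annotated exons. Tools were Python 3.11.15, NumPy 2.4.6, pandas 2.3.3, SciPy 1.17.1, matplotlib 3.10.9 and edgeR 4.0.16 under R 4.3.3. The size factors and log2 ratios were tested on simulated counts that held counting error only, without further variation between cells of a type. The other steps were not tested on simulated data.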

Additional observations from a re-analysis of the deposited data

Results flagged for a closer look

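Of 20 combinations of gene and response type, 4 held a cell whose distance from the next exceeded Dixon's 95% limit, where chance gives about 1 in 20 groups for normally distributed values. These counts are skewed, so that rate need not apply to them, and 2 of the 4 are from J162_16. Stim1 in T-type cells was 1626 normalized counts in J165_23 and 0 to 249 in the other 5. Stim1 in M-type cells was 499 in J173_25 and 11.7 to 55.7 in the other 4. Orai1 in T-type cells was 635 in J162_16 and 0 to 170 in the others, and Orai3 was 25.4 in J162_16 and 0 to 0.640 in the others. The last 2 values share a cell with a small size factor and the second rests on 7 reads. The cause of these values was not tested.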

How the results depend on the processing

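Under the alternatives, 518 log2 ratios of the 5 genes stayed within the spread between cells and 7 moved further. None of the ratios past 2-fold turned its direction. The spread between cells is wide, so these counts say little about stability. Stim1 in T-type versus M-type went from 1.51 to 1.29e-05 without J165_23 and still counted as within it. A change of sign was not counted for ratios under 2-fold. Orai1 in T-type versus S-type went from -0.65 to 0.06 without J151_5. The number of genes at least 2-fold lower in T-type than in S-type was 5 with medians and a pseudocount of 1, and 4 with CPM of pooled reads, mean CPM, thinned cells and without the 3 T-type cells of low size factor. Those 4 settings also gave 4 lower genes in T-type against M-type and against NR, and medians gave 4 against M-type, where the count over all cells was 3 each. The number lower in S-type than in M-type was 1 with CPM of pooled reads, mean CPM, TMM, thinned cells and medians. The number higher in T-type than in NR was 1 without the 3 T-type cells of low size factor. The number higher in S-type than in NR was 2 with medians. The number higher in M-type than in NR was 2 with CPM of pooled reads, mean CPM, TMM and thinned cells, and the number lower was 0 with TMM. With each cell left out in turn, 3 to 4 genes were lower in T-type than in S-type, and 0 to 1 were higher and 3 to 4 lower than in M-type. The count of genes lower in T-type than in NR ran from 2 to 4. From S-type to M-type 1 to 2 were higher and 0 to 1 lower, from S-type to NR 1 to 2 were higher, and from M-type to NR 1 to 3 were higher and 0 to 1 lower. The share of Stim2 ran from 53.6% to 63.6% for S-type cells, from 7.59% to 37.6% for T-type, from 78.6% to 95.8% for M-type and from 55.2% to 68.96% for NR, and with the length of all annotated exons it was 76.1%, 28.7%, 93.5% and 79.9%. The share of all genes past 2-fold was not counted under the alternative scalings or with cells left out. The counts of members there thus have no background beside them. The median of all genes also moved. In T-type versus S-type it was -0.07 with size factors, -0.55 with CPM of pooled reads, -0.44 with mean CPM, -0.42 with thinned cells and -0.73 with medians. The cause of these shifts was not tested.

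No paired analysis was possible because cell numbers mark no shared animal or culture and each type is 1 sample. Depth limits the 0 counts of T-type cell J163_18, where up to 1.02 CPM would go undetected, more than those of J165_23 with 0.156 CPM. Reads lost in amplification and RNA absent from the cell cannot be told apart.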
